A study of Mus musculus with 4 samples.

Results

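The serpins described here are Serpinb1a, Serpinb1b, Serpinb1c, Serpinb6a, Serpinb6b, Serpinb9 and Serpinb9b of clade B, Serpina3f and Serpina3g of clade A, and Serping1. Although the set was drawn up as clade A and B inhibitors, Serping1 is the gene of clade G. These 10 genes were chosen by name from the 63 serpin genes among 23990 gene symbols, and all 10 were present in the deposited tables. RNA came from effector CD4 cells (CD44+CD4) sorted at onset of EAE, a mouse model of MS that is started by immunization with the myelin peptide MOG. One group of 2 libraries, CNS, held CD4 cells of the spinal cord, and the other group of 2 libraries, dLN, held CD4 cells of the draining lymph nodes. All 4 libraries were labelled wild type and C57BL/6, all mice were MOG-immunized, and no library of unimmunized or naive mice was compared here. The cells were pooled, and the age and number of the mice per library are not given in the sources used here. The paper's methods describe a stimulation of the sorted cells with PMA and ionomycin, whereas the labels name none. What the labels call separate samples may thus be pools of cells, and p-values measure the spread between these libraries.

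Serpins are protease inhibitors that present a reactive centre loop as bait. The protease cleaves the loop and is then trapped on the serpin by a change in shape, so each inhibitor molecule is used up. Most clade B serpins lack a secretion signal and work inside the cell, where they protect cytotoxic lymphocytes and other leukocytes from proteases that leak out of their own granules. Clade A serpins are typically secreted, but Serpina3g acts inside lymphocytes. CD4 cells that carry granzymes are known in the inflamed CNS, and the comparison of the tissues asks which inhibitors are expressed beside these proteases.

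Levels are FPKM, fragments divided by the length of the transcript and by the size of the library, added up over all transcripts of a gene. A log2 ratio is CNS over dLN on the scale log2(FPKM + 1), which understates the change of low genes. A gene was called when its adjusted p from limma, corrected by Benjamini-Hochberg over the 10634 genes whose mean reached 1 FPKM in a tissue, was under 0.05. The depth, estimated from the steps between low FPKM values, was 18.55 to 21.9 M fragments per library, and 3 fragments were taken as the limit of detection. The T cell markers Cd3d, Cd3e, Cd3g, Cd4, Cd247, Cd44, Lck and Cd28 were all expressed and summed to 2749 and 2775 FPKM in CNS and to 1062 and 979 FPKM in dLN. Of these 8, 6 were called higher in CNS, whereas Cd247 and Cd44 were called lower (log2 ratios -0.41 and -0.56). The median log2 ratio of the 8 was 1.70. CNS replicate 2 stood apart in myeloid genes. The 14 microglia and macrophage markers summed to 27.4 FPKM in replicate 1 of CNS, 240 FPKM in replicate 2 of CNS and 3.93 to 4.38 FPKM in dLN, and 13 of the 14 were higher in CNS replicate 2 than in CNS replicate 1. The 9 neutrophil markers in the tables summed to 5.89 and 233 FPKM in CNS and to at most 0.0863 FPKM in dLN. The tissues also differed in the sex-linked transcripts Ddx3y and Xist, each read in one tissue and at or near 0 in the other, so that tissue, table and sex of the mice cannot be told apart. Fewer cells of a type and less RNA per cell cannot be told apart in these bulk samples either.

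Upstream sequence is shown for 4 serpins that were higher in CNS, because these windows hold the letters of the STAT motif TTCNNNGAA or of the interferon response element (GAAA, any 2 bases, GAAA), which factors downstream of cytokine receptors bind. Each run holds the 250 bases before a start site, 5′ to 3′ on the strand of the gene, from RefSeq on GRCm38.p6, and capitals mark the matches. The Serpina3f run is chr12:104214294-104214543 (+) and the Serpina3g run is chr12:104235897-104236146 (+). For Serpinb6a both start sites are shown, with the outer run at chr13:34002795-34003044 (-) and the inner run, which has no match, at chr13:33936084-33936333 (-). The Serpinb9 run is chr13:33004291-33004540 (+).
Serpina3f: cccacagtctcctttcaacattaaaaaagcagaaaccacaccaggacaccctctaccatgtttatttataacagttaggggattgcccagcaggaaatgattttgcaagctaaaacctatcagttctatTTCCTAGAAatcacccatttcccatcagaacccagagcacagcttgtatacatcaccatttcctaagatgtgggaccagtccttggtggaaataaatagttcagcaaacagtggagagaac
Serpina3g: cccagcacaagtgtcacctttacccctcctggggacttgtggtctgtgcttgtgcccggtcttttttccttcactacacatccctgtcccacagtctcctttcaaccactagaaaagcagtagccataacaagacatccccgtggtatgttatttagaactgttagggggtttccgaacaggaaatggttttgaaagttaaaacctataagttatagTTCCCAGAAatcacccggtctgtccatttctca
Serpinb6a, outer start: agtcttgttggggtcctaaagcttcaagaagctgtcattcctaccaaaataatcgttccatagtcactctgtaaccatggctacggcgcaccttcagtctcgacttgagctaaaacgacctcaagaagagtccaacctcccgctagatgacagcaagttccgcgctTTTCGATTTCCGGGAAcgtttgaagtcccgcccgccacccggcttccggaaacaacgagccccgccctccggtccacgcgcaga
Serpinb6a, inner start: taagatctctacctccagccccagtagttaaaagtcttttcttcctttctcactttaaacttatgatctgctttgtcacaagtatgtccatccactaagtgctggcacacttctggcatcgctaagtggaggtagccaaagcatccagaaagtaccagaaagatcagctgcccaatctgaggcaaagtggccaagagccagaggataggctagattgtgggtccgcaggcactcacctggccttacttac
Serpinb9: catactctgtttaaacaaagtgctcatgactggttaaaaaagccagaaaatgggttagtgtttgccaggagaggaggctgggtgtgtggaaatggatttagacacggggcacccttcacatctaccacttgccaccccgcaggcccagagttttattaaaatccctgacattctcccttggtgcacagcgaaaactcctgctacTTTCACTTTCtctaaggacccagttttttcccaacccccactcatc

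RefSeq windows from 250 bases before to 50 bases after a start were at hand for 8 of the 10 genes, in 11 windows, and none for Serpinb1a or Serping1. Searched on both strands, TTCNNNGAA, which reads the same on both strands, was present in 4 of the 11 windows, from Serpina3f, Serpina3g and Serpinb6a, and in 8.3% of all 32851 windows of this length. Of these 4, 2 are overlapping Serpina3f windows that hold the same match. The match TTCCTAGAA began 121 bases before the Serpina3f start, and TTCCCAGAA began 33 bases before the Serpina3g start. Aligned to each other, the windows of these neighbours were identical at 169 of 214 positions (79.0%), so the pair is not 2 separate observations. The outer Serpinb6a window held TTCCGGGAA 77 bases before the start and again from base 21 after it, beyond the run shown. The interferon response element was present in 2 windows and in 3.44% of all windows. In the outer Serpinb6a window its match TTTCGATTTC, read on the opposite strand, overlapped the first TTCCGGGAA, and in Serpinb9 the match TTTCACTTTC began 46 bases before the start. The AP-1 motif TGANTCA was found in 0 of the 11 windows and in 7.81% of all windows, and the NF-kappaB motif (GGG, any 5 bases, CC) in 4 windows and in 50.8% of all windows. These matches are letters in a window, and no binding was measured.

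Of the 10 serpins, 7 passed the expression minimum and were tested, and 6 of these were higher in CNS, namely Serpina3f, Serpina3g, Serpinb6a, Serpinb6b, Serpinb9 and Serping1. No serpin of the set was lower, and Serpinb1a was not called. Serping1 passed the minimum only through CNS, with means of 2.50 FPKM there and 0 in dLN. It could therefore not come out lower, and it counts in these 6 and in the median below. Calls were frequent in this comparison, since 74.9% of all genes tested were called with 37.8% called higher and 37.2% called lower in CNS. The 6 called serpins all had a log2 ratio of at least 1, which 21.0% of the tested genes reached together with the call, and Serpinb6a, Serpina3f and Serpina3g reached 2, as did 7.04% of the tested genes. The median log2 ratio was 2.06 over the 7 serpins tested and 0.05 over all genes tested. In these 6 genes both CNS libraries lay above both dLN libraries, a pattern of 45.7% of all genes tested, while tissues without overlap in either direction were found for 89.4%. With 2 libraries per tissue the smallest p of an exact permutation test is 0.333, so the adjusted values rest on the spread limma shares across genes. Without CNS replicate 2 the log2 ratios of the 6 ran from 1.23 for Serping1 to 3.02 for Serpinb6a. The spread of each gene in that fit comes from dLN alone, where both Serping1 values were 0.

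**Figure D1:**
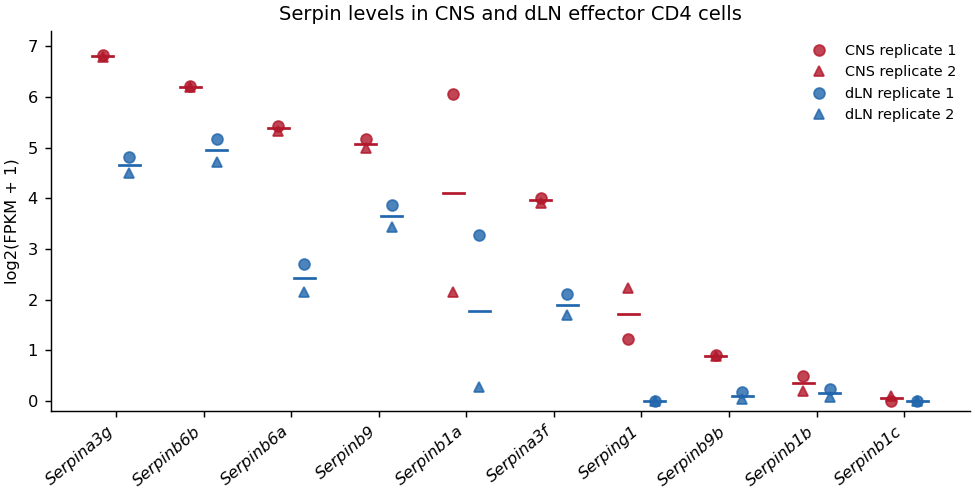
Level of each of the 10 serpins as log2(FPKM + 1) in the 2 CNS libraries (red) and the 2 dLN libraries (blue), with replicate 1 as circles, replicate 2 as triangles and a bar at the tissue mean. The CNS points lie together above the dLN points for Serpina3g, Serpinb6b, Serpinb6a, Serpinb9 and Serpina3f, whereas those of Serpinb1a spread from 3.45 to 65.9 FPKM within CNS.

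**Figure D2:**
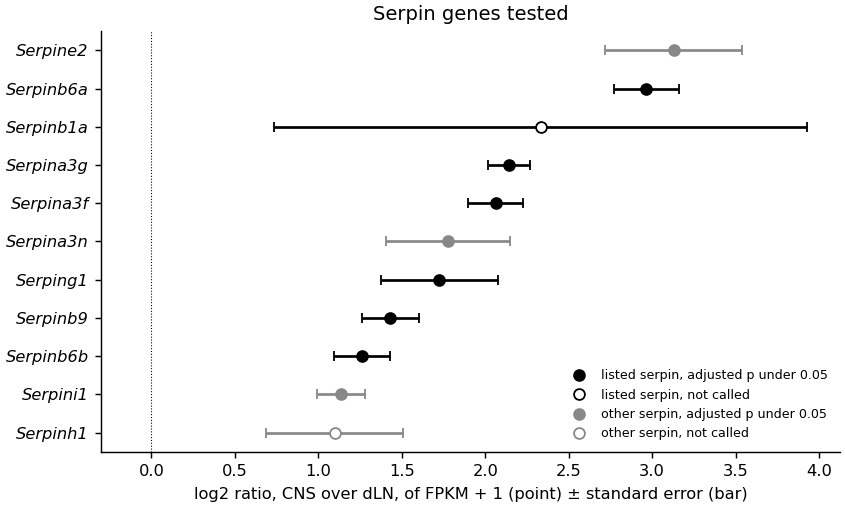
Log2 ratio of CNS over dLN on the scale of log2(FPKM + 1) for the 7 tested serpins of the set (black) and 4 other tested serpins (grey), with bars of 1 standard error from limma; filled points had an adjusted p under 0.05. The bar of Serpinb1a, with a standard error of 1.60, is the widest shown, and all points lie above 0.

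Serpinb9, the inhibitor of granzyme B, lies on chromosome 13 from 33004541 to 33017955 on the plus strand (Entrez gene 20723, mm10). Its level was 35.0 and 30.8 FPKM in CNS and 13.5 and 9.84 FPKM in dLN. The tissues did not overlap, and the mean in CNS was 2.82-fold that in dLN. The log2 ratio was 1.43 with a standard error (SE) of 0.17 (limma adjusted p = 0.00127). Serpinb9b, the neighbouring paralog (Entrez gene 20706, chromosome 13, 33027414 to 33040558, plus strand), was far lower, at 0.860 and 0.850 FPKM in CNS and 0.124 and 0.0260 FPKM in dLN. Those values stand for an estimated 31.8 fragments in each CNS library and for 4.0 and 1.0 fragments in the dLN libraries. Serpinb9b stayed under the expression minimum and was not tested, although both CNS libraries lay above both dLN libraries. With no minimum on expression it had a limma adjusted p of 0.00308.

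Serpinb6b, an inhibitor of granzyme A, was the serpin with the highest level in dLN. It lies between Serpinb1c and Serpinb9 (Entrez gene 20708, chromosome 13, 32965513 to 32979037, plus strand) and was at 73.8 and 72.1 FPKM in CNS and at 35.2 and 25.2 FPKM in dLN. The CNS libraries differed by less than the dLN libraries, and the tissues did not overlap. Its log2 ratio of 1.26 (SE 0.17, limma adjusted p = 0.00193, 2.41-fold in the means) was the smallest among the 6 called serpins.

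Serpinb6a, an intracellular inhibitor of trypsin-like proteases and of cathepsin G, had the largest log2 ratio of the 10 genes at a pseudocount of 1, whereas at a pseudocount of 0.1 Serping1 stood above it (4.54 against 3.21), with Serpinb1a at the same 3.21 and not called. Its transcripts span chromosome 13 from 33917918 to 34002794 on the minus strand (Entrez gene 20719). Their summed level was 42.4 and 39.5 FPKM in CNS and 5.48 and 3.44 FPKM in dLN. Both CNS libraries lay above both dLN libraries. The log2 ratio was 2.97 with a standard error of 0.20 (limma adjusted p = 0.000231), and the fold of the means was 9.18.

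The tables list 4 Serpinb6a transcripts with 2 start sites, an inner one at 33936083 for 3 transcripts and an outer one at 34002794 for 1 transcript. From the inner start the level was 34.1 and 31.9 FPKM in CNS and 4.72 and 1.74 FPKM in dLN. From the outer start it was 8.30 and 7.58 FPKM in CNS and 0.759 and 1.70 FPKM in dLN. Both start sites were thus above dLN in both CNS libraries, at 10.2-fold and 6.46-fold in the means. In CNS the outer start held 19.6% and 19.2% of the gene, while in dLN it held 13.9% and 49.4%, so the dLN libraries differed more from each other than from CNS. Transcript values that share exons are estimates that depend on each other and were not tested. Nqo2 (quinone reductase 2) lies on the plus strand between these start sites, from 33964659 to 33988465, and 1110046J04Rik overlaps the inner start on the plus strand. No use of strand in the counting is stated, so reads of overlapping genes cannot be told apart.

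**Figure D3:**
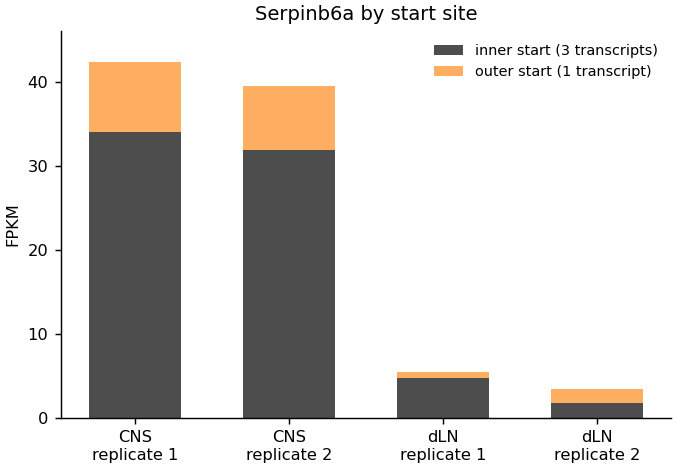
FPKM of Serpinb6a in each of the 4 libraries, stacked by start site, with the 3 transcripts of the inner start in dark grey and the transcript of the outer start in orange. Both parts are taller in CNS (42.4 and 39.5 FPKM in all) than in dLN (5.48 and 3.44 FPKM in all).

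Serpinb1a encodes the mouse counterpart of SERPINB1, which inhibits neutrophil elastase, cathepsin G and proteinase 3. The gene lies on chromosome 13 from 32842092 to 32851185 on the minus strand (Entrez gene 66222) and has a single transcript in the tables. Replicate 1 of CNS held 65.9 FPKM and replicate 2 held 3.45 FPKM, whereas replicate 1 of dLN held 8.73 FPKM and replicate 2 held 0.209 FPKM. In each tissue replicate 1 was high and replicate 2 low, and the tissues overlapped because dLN replicate 1 lay above CNS replicate 2. The gap between libraries was 19.1-fold within CNS and 41.8-fold within dLN, larger than the 7.76-fold difference between the tissue means. Behind these values stood an estimated 2417 and 128 fragments in CNS and 280 and 8.0 fragments in dLN. At 2.33 the log2 ratio came with an SE of 1.60 and was not called (limma adjusted p = 0.236). Leaving out 1 library at a time gave log2 ratios from 0.38 without CNS replicate 1 to 4.29 without CNS replicate 2, none of them called.

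Among the 10634 genes tested, Serpinb1a was the one gene with replicate 1 above replicate 2 by at least 1 on the log2 scale in both tissues, and its differences were 3.91 in CNS and 3.01 in dLN. In the opposite direction 3 genes passed the same limit, Mir6236, Eif3j1 and Snora78. Eif3j1, a translation initiation factor subunit, was at 0.0674 and 21.3 FPKM in CNS and at 0.0750 and 12.3 FPKM in dLN. Replicates otherwise lay close, since 97.3% of genes in CNS and 99.3% in dLN differed by less than 1 on this scale. All 4 libraries were labelled wild type, and the labels do not say that libraries with the same number came from the same mice. Whether the genotype of the libraries with low Serpinb1a is the one on their label was not tested and cannot be told from these tables. The 5 called clade A and B serpins differed by at most 0.18 between the CNS libraries and at most 0.54 between the dLN libraries on the log2 scale.

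**Figure D4:**
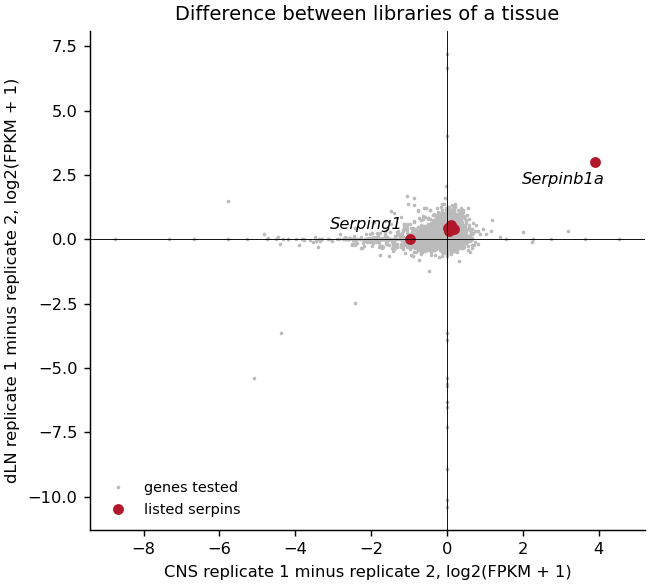
Difference of replicate 1 minus replicate 2 in log2(FPKM + 1) within CNS (horizontal) and within dLN (vertical) for the 10634 tested genes (grey) and the 7 tested serpins (red). Serpinb1a stands alone in the upper right at 3.91 and 3.01, Serping1 lies to the left at -0.99 and 0, and the other 5 serpins lie near the centre.

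The 5 tested genes whose profile over the 4 libraries, after centring on the mean of each gene, lay nearest to that of Serpinb1a were Scarna8, Atp6v0c-ps2, Gm4070, Snord15b and Ctse. Their root mean square differences were 1.09 to 1.35 on the log2 scale. In dLN these 5 genes were at 1.73 FPKM or less. Ctse, which encodes the aspartic protease cathepsin E, was at 133 and 13.7 FPKM in CNS but at 1.73 and 1.17 FPKM in dLN. For comparison, the nearest gene to Serpina3f, Emb, was at a distance of 0.00905.

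Serpinb1b and Serpinb1c, the mouse paralogs of Serpinb1a, were close to the limit of detection. Serpinb1b (Entrez gene 282663, chromosome 13, 33084103 to 33094380, plus strand) was at 0.397 and 0.151 FPKM in CNS and 0.176 and 0.0590 FPKM in dLN, or an estimated 12.9, 5.0, 5.0 and 2.0 fragments. Serpinb1c (Entrez gene 380839, chromosome 13, 32881397 to 32898140, minus strand) was read only in CNS replicate 2, at 0.0656 FPKM or 2.0 fragments, under the limit of 3 fragments. Neither gene passed the minimum, and a difference between the tissues was not detectable at this depth. The share of 50-base words that the transcript has in common with transcripts of other genes was 3.42% for Serpinb1a, 3.52% for Serpinb1b and 6.63% for Serpinb1c.

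Serpina3g, also known as Spi2A, inhibits lysosomal cysteine cathepsins as well as serine proteases and protects lymphocytes from cathepsins released into the cytoplasm. It had the highest level of the 10 genes in CNS, with 112.9 and 109.0 FPKM, against 27.2 and 21.8 FPKM in dLN. The tissues did not overlap, the CNS libraries lay within 1.04-fold of each other, and the log2 ratio was 2.14 (SE 0.13, limma adjusted p = 0.000177, 4.53-fold in the means). Serpina3f, the neighbouring gene, was at 15.1 and 14.1 FPKM in CNS and 3.33 and 2.22 FPKM in dLN. It too showed no overlap, with a log2 ratio of 2.06 (SE 0.17, limma adjusted p = 0.000383, 5.27-fold in the means). In the tables both start at base 104214544 of chromosome 12 on the plus strand, where Serpina3f (Entrez gene 238393) ends at 104221129 and Serpina3g (Entrez gene 20715) at 104241934. The RefSeq start used for the Serpina3g window is a different one, at 104236147.

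These paralogs share sequence, so reads may have been split between them. Of the 50-base words of a GENCODE Serpina3g transcript, 16.0% also occur in transcripts of other genes, mainly Serpina3h (8.67%) and Serpina3f (6.67%), and for Serpina3f the share was 10.7%. That Serpina3g transcript has 1803 bases and the one behind the FPKM has 2020, so the share of the latter can differ. Serpina3h itself was at no more than 0.126 FPKM. The sum of Serpina3f and Serpina3g, which does not depend on a split between the pair, was 128 and 123 FPKM in CNS and 30.6 and 24.0 FPKM in dLN, a fold of 4.60. Within each library Serpina3g lay above Serpina3f by 2.82 and 2.87 in CNS and by 2.71 and 2.82 in dLN on the scale of log2(FPKM + 1). The shift of this gap between the tissues was 0.08 (exact permutation test, two-sided, p = 0.667). Of the Serpina3f transcripts, NM_001168294 held 96.0% and 100% of the gene in CNS and 86.4% and 55.3% in dLN.

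For the Serpinb6 pair the gap differed between the tissues by more than between libraries. Serpinb6a lay below Serpinb6b by 0.79 and 0.85 in CNS and by 2.48 and 2.56 in dLN on the log2 scale, values that did not overlap. The shift of 1.70 had an exact permutation p of 0.333 (two-sided), the smallest this design allows, so it cannot pass a threshold. Serpinb9 lay above Serpinb9b by 4.28 and 4.10 in CNS and 3.69 and 3.40 in dLN, a shift of 0.64 with the same p of 0.333. Shared 50-base words were 2.68% in Serpinb6a and 3.12% in Serpinb6b, and those of Serpinb9 and Serpinb9b were 0.388% and 0.499%.

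Serping1, the C1 inhibitor of plasma, blocks the complement proteases C1r and C1s and plasma kallikrein. It lies on chromosome 2 from 84765360 to 84775429 on the minus strand (Entrez gene 12258). It was at 1.35 and 3.66 FPKM in CNS, or 46.6 and 128 fragments, and was listed at 0 in both dLN libraries, where 3 fragments would give 0.0992 and 0.0835 FPKM. The log2 ratio was 1.72 with a standard error of 0.35 (limma adjusted p = 0.00822). CNS replicate 2 lay 2.72-fold above CNS replicate 1, the opposite direction to the 5 called clade A and B serpins, for which this ratio was 0.879 to 0.977. The summed levels that moved in the same direction included those of the microglia and macrophage markers (8.76-fold higher in CNS replicate 2), the neutrophil markers (39.5-fold, of which S100a8 went from 0 FPKM to 101 FPKM) and the endothelial markers (1.40-fold, 24.7 and 34.7 FPKM). The sums of the mast cell and basophil (3.07-fold), B cell (1.82-fold), NK cell (1.52-fold) and CD8 T cell markers (1.42-fold) were also higher in CNS replicate 2. The neural and glial sum, mostly Mbp, had a ratio of 0.999, but Gfap, an astrocyte gene, was at 0.655 and 2.51 FPKM and Snap25, a neuronal gene, at 0.316 and 1.80 FPKM in the CNS libraries. The T cell markers had a ratio of 1.01. The part of these markers in the Serping1 result was not tested. In CNS replicate 1 the gene was read with 46.6 fragments, and without CNS replicate 2 its log2 ratio was 1.23. CNS replicate 1 held microglia and macrophage markers as well, which summed to 27.4 FPKM there and to 4.38 and 3.93 FPKM in dLN.

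**Figure D5:**
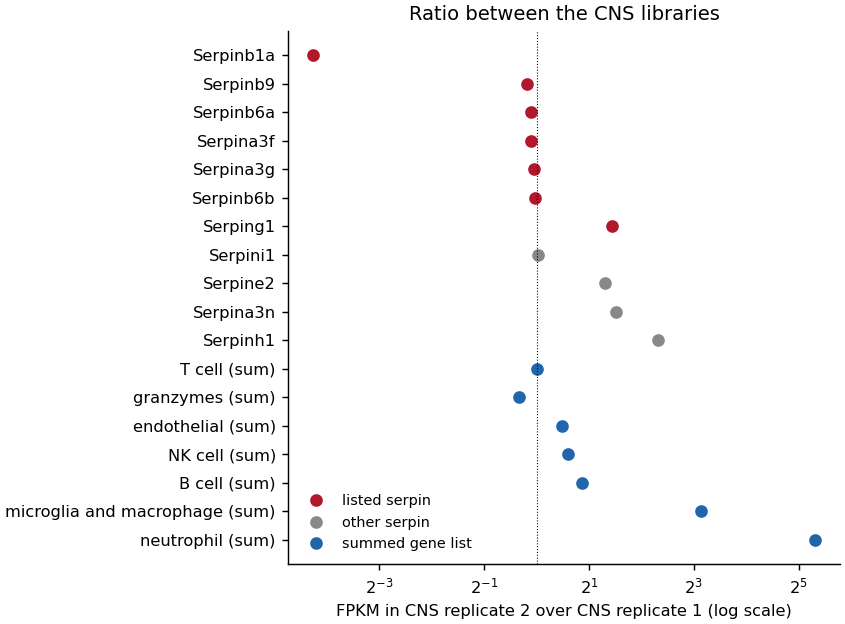
FPKM in CNS replicate 2 over CNS replicate 1 on a log axis, for the tested serpins of the set (red), 4 other tested serpins (grey) and the summed marker and granzyme lists (blue). Serpinb9, Serpinb6a, Serpina3f, Serpina3g and Serpinb6b lie between 0.879 and 0.977 near the T cell sum at 1.01, and Serpinb1a lies at 0.0523. Serping1 lies at 2.72, between the endothelial sum at 1.40, which is mostly Pecam1, and the myeloid sums at 8.76 and 39.5.

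FPKM is scaled per length, so levels can also be set side by side between genes. In CNS the order by mean was Serpina3g, Serpinb6b, Serpinb6a, Serpinb1a, Serpinb9, Serpina3f, Serping1, Serpinb9b, Serpinb1b and Serpinb1c. Serpinb1a could not be placed in this order, since its range of 3.45 to 65.9 FPKM overlapped those of Serpinb6a, Serpinb9, Serpina3f and Serping1. In dLN the order was Serpinb6b, Serpina3g, Serpinb9, Serpinb1a, Serpinb6a, Serpina3f, Serpinb1b and Serpinb9b, with Serpinb1c and Serping1 at 0. The ranges of Serpinb6b and Serpina3g and of Serpinb1b and Serpinb9b overlapped there, and that of Serpinb1a overlapped those of Serpinb6a and Serpina3f. All 10 genes summed to 348 and 274 FPKM in CNS and to 93.8 and 62.8 FPKM in dLN.

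Outside the set, 53 further serpin genes were in the tables, of which 32 were listed at 0 in all 4 libraries and 5 were tested. Of these 5, 3 were higher in CNS and none was lower, where 37.8% of all genes tested were higher. Serpina3n, Serpini1 and Serpinh1 passed the minimum only through CNS, so they could not come out lower. Among the 3 called, only Serpine2 also reached it in dLN, with a mean of 1.03 FPKM. Serpine2, the thrombin inhibitor protease nexin-1, was at 10.6 and 26.2 FPKM in CNS and 1.07 and 0.992 FPKM in dLN, with a log2 ratio of 3.13 (SE 0.41, limma adjusted p = 0.00181). Serpini1, or neuroserpin, was at 2.13 and 2.16 FPKM in CNS and 0.348 and 0.522 FPKM in dLN (log2 ratio 1.14, limma adjusted p = 0.00161). Serpina3n, an inhibitor of granzyme B, was at 1.37 and 3.95 FPKM in CNS and listed at 0 in both dLN libraries (log2 ratio 1.78, limma adjusted p = 0.00908). Serpinh1, the collagen chaperone Hsp47, was at 0.460 and 2.29 FPKM in CNS and under the limit of detection in dLN, and was not called (limma adjusted p = 0.0593). Serpine2 (2.48-fold), Serpina3n (2.88-fold) and Serpinh1 (4.98-fold) were all higher in CNS replicate 2. So were the myeloid and endothelial sums, Gfap (3.83-fold) and Snap25 (5.69-fold). The part of these markers in the serpin values was not tested.

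The proteases that these inhibitors act on were read beside them. Of 10 granzymes, 5 were tested and 4 were higher in CNS, where 37.8% of all genes tested were higher. Gzma, a target of Serpinb6b, was at 167 and 104 FPKM in CNS and 1.88 and 0.849 FPKM in dLN (log2 ratio 5.85, limma adjusted p = 0.000139). Gzmb, the target of Serpinb9, was high in both tissues, at 278 and 265 FPKM in CNS and 164 and 109 FPKM in dLN. Its log2 ratio was 1.02 (limma adjusted p = 0.00776), and the call was lost without CNS replicate 1 (limma adjusted p = 0.0836) or CNS replicate 2 (limma adjusted p = 0.0695). Gzmk and Gzmm had log2 ratios of 6.23 and 1.36, and Gzmc at 0.56 was not called. NK cells also carry granzymes, and the 8 NK cell markers summed to 5.79 and 8.79 FPKM in CNS and to 0.487 and 0.362 FPKM in dLN, with Ncr1 at 0 and 0.581 FPKM in CNS. The 2 of them that were tested, Eomes, which T cells can also express, and Klrb1c, were higher in CNS (log2 ratios 1.58 and 1.92). Both passed the minimum only through CNS, so they could not come out lower. The part of the NK cell markers in the granzyme values was not tested. The FPKM ratio of Gzmb to Serpinb9 was 7.93 and 8.60 in CNS and 12.1 and 11.05 in dLN, so the protease gene was above the inhibitor gene in all 4 libraries. The ratio of Gzma to Serpinb6b was 2.27 and 1.44 in CNS and 0.0533 and 0.0336 in dLN, so here the order of the 2 genes turned between the tissues.

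The papain-like cathepsins are the class that Serpina3g can block. Of 8 genes, 7 were tested, and Ctsb (log2 ratio 1.37), Ctss (2.49) and Ctsw (6.67) were higher, while Ctsz was lower (-0.96, limma adjusted p = 0.0383). A count of 3 in 7 is near the 37.8% of all genes tested that were higher. The call of Ctsz was lost with no minimum on expression (limma adjusted p = 0.103) and without dLN replicate 1 (0.113) or dLN replicate 2 (0.139). Ctsw, cathepsin W of cytotoxic lymphocytes, was at 416 and 423 FPKM in CNS and 4.65 and 2.03 FPKM in dLN. Ctsl, a target of Serpina3g, was at 2.13 and 7.52 FPKM in CNS and 11.6 and 12.5 FPKM in dLN and was not called (limma adjusted p = 0.0528). All 8 cathepsins were higher in CNS replicate 2 than in CNS replicate 1, and the part of the myeloid, endothelial and glial markers in this was not tested.

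The neutrophil and mast cell serine proteases, which include the targets of Serpinb1a, were nearly absent. Of 10 genes none passed the minimum and 7 were listed at 0 in all 4 libraries. Elane, neutrophil elastase, was listed at 0 throughout, Ctsg was read in CNS replicate 1 with 1.0 fragment, and Prtn3 was read in CNS replicate 2 with 8.0 fragments. Of the complement and contact proteases, 11 of the 13 listed were in the tables and 3 were tested. C1s, a target of Serping1, was at 0.875 and 2.48 FPKM in CNS and at most 0.00658 FPKM in dLN (log2 ratio 1.35, limma adjusted p = 0.015), and the call was lost without either dLN library. C1ra was at 0.440 and 2.20 FPKM in CNS and listed at 0 in dLN (log2 ratio 1.10, limma adjusted p = 0.0566). Plau, the urokinase plasminogen activator, had a log2 ratio of 0.62 and was not called (limma adjusted p = 0.222). Over all 39 proteases in the tables, 15 were tested, 8 were higher, 1 was lower and 6 were not called, with a median log2 ratio of 1.35. Among all genes tested, 37.8% were higher, 37.2% were lower and the median log2 ratio was 0.05. Some of the 15, among them Gzmk, Gzmm, C1s and C1ra, passed the minimum only through CNS.

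The clade B members lie together on chromosome 13 within 1.16 Mb, from Serpinb1a at 32842092 to the outer start of Serpinb6a at 34002794. The tables place 15 serpin genes there, of which 7 were listed at 0 in all libraries, among them Serpinb9c, Serpinb9d, Serpinb9e, Serpinb9f and Serpinb9g, which lie between Serpinb1b and Serpinb6a. Expression within the cluster was thus uneven, with Serpinb6b and Serpinb9 expressed in the same cluster as genes without a fragment. The Serpina genes of chromosome 12, 24 in 0.798 Mb, showed the same unevenness, with 14 listed at 0 and Serpina3f, Serpina3g and Serpina3n passing the minimum. Serpina3i, which lies between Serpina3h and Serpina3j, was at 0.339 and 0.300 FPKM in CNS and 0.0359 and 0.0225 FPKM in dLN, under the minimum.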

How the data were processed

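Per the labels and the paper's methods, RNA of sorted CD44+CD4 cells was purified with RNeasy kits, made into TruSeq RNA V2 libraries and sequenced on an Illumina HiSeq instrument, with 2 libraries per tissue. After trimming and mapping, FPKM values of 33819 RefSeq transcripts (mm10) were deposited by the authors, with a table for each tissue. The aligner and the program that computed FPKM are not given in the sources used here. The header of the CNS table gives both library names in the same cell, and the columns of values were read in that order.

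FPKM was summed by gene symbol, leaving out 565 transcripts without one. The 10634 genes whose mean reached 1 FPKM in a tissue were tested by limma 3.58.1 (trend, R 4.3.3) for a tissue term on log2(FPKM + 1), with a Benjamini-Hochberg threshold of 0.05. The test was checked on simulated data. Depth was estimated from low FPKM values, of which 90.8% to 93.2% were whole multiples of 1 fragment within 0.05, where chance gives 10%, and limits of detection cover counting error only. Values below these steps can be estimates split between transcripts. Strand, gene models and shared 50-base words came from GENCODE M21, and start sites and upstream bases from RefSeq on GRCm38.p6. Some GENCODE transcripts differ in length from the quantified ones, as for Serpinb6b (2193 and 1859 bases) and Serpinb9b (3253 and 1929 bases). Python 3.11.15 was used for the rest.

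The members, the lists and the tests were chosen with earlier results of these data known. The genes named are the members, the other serpins, listed proteases and genes of the serpin clusters above the minimum, and the 5 genes nearest to Serpinb1a. Others named, among them Eif3j1, Emb and the serpins under the minimum, were chosen after their values were seen. Alternatives covered the pseudocount, the minimum on expression, 2 rescalings, the highest transcript of a gene, limma without trend, a replicate block and leaving out each library. Protein sequences were not used here, and 1 tested gene of the lists is not reported here.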

Additional observations from a re-analysis of the deposited data

How the results depend on the processing

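The 6 calls among the serpins, all higher in CNS, held under the pseudocount of 0.1, both rescalings, the highest transcript, limma without trend and each left-out library, with log2 ratios of at least 1.03. With a minimum of 5 FPKM 5 of 6 serpins tested were called, since Serping1 was no longer tested, and with no minimum 7 of 10, the addition being Serpinb9b. Leaving out a library leaves 1 library in a tissue, which is then assumed to vary like the other tissue. For Serping1 without a CNS library, that other tissue is dLN, where both values were 0. Over all genes 7968 were called, and 6518 to 8477 under the alternatives with all libraries, or 6596 to 7363 with 1 library left out. Rescaling to the same sum shifted the median log2 ratio by -0.17 and moved the share of calls that were higher from 50.4% to 43.1%, and the upper quartile shifted the median by 0.12. The numbers of the replicates were not taken to pair libraries (correlation of their differences 0.0933 across genes). With the replicate block 7828 genes and 7 serpins were called, because Serpinb1a, whose libraries of the same number move together, had a limma adjusted p of 0.00225. The adjusted p of Serpinb1a ranged from 0.00225 to 0.848 over the alternatives, that of Gzmb from 0.00264 to 0.0836, that of C1s from 0.00453 to 0.0626 and that of Serping1 from 0.00207 to 0.042. Among the other serpins 3 were called, 5 with no minimum on expression, 1 with the minimum of 5 FPKM (2 tested), and 3 to 5 with 1 library left out. Of the proteases 9 were called, and 7 to 12 under the alternatives. Directions turned only for uncalled proteases, Gzmc, from -0.0042 to 1.13 with 1 library left out, and Ctsc, from -0.16 to 0.13 with 1 library left out and 0.12 under the upper quartile. The cause was not tested. Serpinb1b, Serpinb1c and the dLN level of Serpinb9b are limited by depth.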

Other observations

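Nqo2, which encodes a quinone reductase and lies between the start sites of Serpinb6a on the other strand, was at 9.22 and 7.04 FPKM in CNS and 0.522 and 0.183 FPKM in dLN. Its log2 ratio was 2.76 (limma adjusted p = 0.000275). It was the one gene of the Serpinb cluster that is no serpin and passed the expression minimum. Nqo2 did so only through CNS, with means of 8.13 FPKM there and 0.353 FPKM in dLN, so it could not come out lower.

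The profiles nearest to Serping1, looked up after its values were seen and measured as for Serpinb1a, were those of Cp, Serpina3n, Cldn5, Adssl1 and Mmp9, at differences of 0.0317 to 0.0669 on the log2 scale over the 4 libraries. Cp, the copper carrier ceruloplasmin, was at 1.37 and 3.83 FPKM in CNS. Cldn5, a tight junction gene of endothelium, was at 1.36 and 3.32 FPKM in CNS and listed at 0 in dLN. Those nearest to Serpinb6a were Pycard, Ggt1, Acadl, Cnn2 and Rassf2. Pycard, the inflammasome adaptor ASC, was at 44.9 and 44.3 FPKM in CNS and 6.12 and 3.97 FPKM in dLN, at a difference of 0.033 from Serpinb6a. Thy1, the T cell surface gene, was among the 5 nearest to Serpina3g, at 897 and 889 FPKM in CNS and 232 and 179 FPKM in dLN.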
